A study of Mus musculus with 8 samples.

Results

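The transcripts of 10 C-type lectin receptor genes were followed in bone marrow-derived dendritic cells (BMDCs) of the mouse, out of 47937 gene IDs counted. The members were taken by gene symbol (*Clec4a1*, *Clec4a2*, *Clec4d*, *Clec4e*, *Clec4n*, *Clec5a*, *Clec7a*, *Clec9a*, *Clec12a* and *Cd209a*). Such cells develop when bone marrow is cultured with the growth factor GM-CSF. WT cells came from mice without Cre. 3x*Grk*-/- cells, labelled Grk 3xKO, came from adult C57BL6/J-background mice with floxed *Grk2* and *Grk6* alleles (fl/fl), no intact *Grk3* allele (-/-) and the *Vav-iCre* transgene. G-protein coupled receptor kinases (GRKs) phosphorylate activated G-protein coupled receptors, and Vav-iCre acts from early blood precursors on, so that the deletion is not limited to DCs. Cells of both genotypes were left untreated (called unstimulated here) or were treated for a day with LPS, a bacterial cell wall component that triggers maturation. Each of the 4 groups had 2 RNA-seq libraries.

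C-type lectin receptors recognise sugars, lipids and other ligands of microbes and dying cells on the surface of myeloid cells. The activating members signal through the kinase Syk: Mincle (*Clec4e*), MCL (*Clec4d*) and Dectin-2 (*Clec4n*) pair with the adaptor FcR gamma chain, MDL-1 (*Clec5a*) pairs with the adaptor DAP12, and Dectin-1 (*Clec7a*) and DNGR-1 (*Clec9a*) carry a tyrosine motif of their own. Syk acts on CARD9, BCL10 and MALT1 and so on NF-kB. The inhibitory members DCIR (*Clec4a2*) and MICL (*Clec12a*) recruit the phosphatases SHP-1 and SHP-2. *Clec4a1* belongs to the DCIR subfamily, and *Cd209a* encodes a mouse homologue of DC-SIGN.

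On GRCm38 (GENCODE M21), 9 of the members lie on chromosome 6. *Clec4a1*, *Clec4a2*, *Clec4n*, *Clec4d* and *Clec4e* lie within 368.023 kb (chr6:122921848-123289870). *Clec12a*, *Clec9a* and *Clec7a* lie within 130.089 kb (chr6:129342691-129472779). *Clec5a* stands alone (chr6:40574894-40585821), and *Cd209a* is on chromosome 8 (chr8:3743397-3748984). *Clec4d* and *Clec4e* are neighbours on opposite strands, with 6523 bp between the genes. *Clec9a* shares 184 bp of exon with *Clec1b* on the same strand, which is 5.59% of its exon length, and *Clec4a2* shares 6.69% of its 50-base stretches with other genes, most of them with *Clec4a4*. Reads from these stretches could be assigned to either gene. *Clec7a* is annotated as a polymorphic pseudogene in M21, although the gene encodes a working receptor in common strains.

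The promoters of 4 members are shown because their transcripts bracket the range of the differences between the genotypes: the neighbours *Clec4e* and *Clec4d* were the highest above WT, *Clec7a* lay between, and *Cd209a* was the lowest below WT in unstimulated cells. Each sequence is the 250 bases before the RefSeq start site (GRCm38.p6), read 5′ to 3′ on the strand of the gene, at chr6:123289872-123290121 for *Clec4e* (minus strand), chr6:123261857-123262106 for *Clec4d* (plus), chr6:129472780-129473029 for *Clec7a* (minus) and chr8:3748985-3749234 for *Cd209a* (minus). Capitals mark matches to PU.1 (GAGGAA) or C/EBP (TTNNGCAA) on either strand.
Clec4e: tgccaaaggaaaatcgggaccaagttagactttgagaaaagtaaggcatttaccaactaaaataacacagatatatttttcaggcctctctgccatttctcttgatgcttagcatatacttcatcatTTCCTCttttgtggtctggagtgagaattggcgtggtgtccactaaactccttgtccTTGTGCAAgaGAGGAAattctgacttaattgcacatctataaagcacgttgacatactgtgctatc
Clec4d: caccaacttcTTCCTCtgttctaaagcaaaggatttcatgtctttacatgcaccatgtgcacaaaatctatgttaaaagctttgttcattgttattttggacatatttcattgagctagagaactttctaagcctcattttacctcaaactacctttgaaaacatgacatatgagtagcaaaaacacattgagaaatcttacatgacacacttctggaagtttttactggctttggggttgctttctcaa
Clec7a: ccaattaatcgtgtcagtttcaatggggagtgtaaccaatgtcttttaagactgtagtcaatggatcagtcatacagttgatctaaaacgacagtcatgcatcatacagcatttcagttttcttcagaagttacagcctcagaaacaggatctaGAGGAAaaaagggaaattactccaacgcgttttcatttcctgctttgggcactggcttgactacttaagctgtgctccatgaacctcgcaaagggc
Cd209a: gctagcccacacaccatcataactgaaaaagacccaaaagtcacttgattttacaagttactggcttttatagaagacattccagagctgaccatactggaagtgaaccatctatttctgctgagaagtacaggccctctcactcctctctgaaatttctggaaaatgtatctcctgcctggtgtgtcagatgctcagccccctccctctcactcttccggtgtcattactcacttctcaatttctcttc
PU.1 and C/EBP are transcription factors of the myeloid lineage. The 6 PU.1 letters were found in 6 of the 9 members with a RefSeq promoter (*Clec4a1*, *Clec4d*, *Clec4e*, *Clec5a*, *Clec7a* and *Clec12a*) and in 23.3% of all 32851 promoters of the same length. The C/EBP letters were found in *Clec4e* and *Clec12a*, and in 9.56% of all promoters. AP-1 (TGANTCA) matched 1 member, *Clec12a*, and 6.75% of all promoters. NF-kB (by its name), ISRE (GAAA, then 2 bases of any kind, then GAAA) and the E-box (CACGTG) matched 0 members, and 3.90%, 2.98% and 6.02% of all promoters. The windows of *Cd209a*, *Clec4a2* and *Clec9a* held no match to any of the 6 motifs, and no match says only that these letters are not in the window. The RefSeq start of *Clec4a2* lies 16262 bp and that of *Clec12a* 7553 bp from the M21 gene start, so these are the windows of inner start sites.

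Between 4713305 and 6933358 reads per library fell on genes. *Grk2* and *Grk6* transcripts checked the labels: relative to WT, 3x*Grk*-/- libraries had a log2 fold change of -1.11 and -1.19 in unstimulated and of -1.89 and -1.54 in LPS-stimulated cells. *Grk3* was lower by -0.36 and -0.42. None of the 3 was at 0 in any library, and counts over whole genes do not tell a deleted exon from the remaining ones. Of the 7 DC markers fixed for the check, 0 were at 0 in all libraries, and their summed level was 17743–18185 CPM in unstimulated WT, 10168–10456 in unstimulated 3x*Grk*-/-, 12846–14052 in LPS-stimulated WT and 11176–11432 CPM in LPS-stimulated 3x*Grk*-/- libraries. CPM, the counts scaled to a common library size, is here scaled by edgeR's TMM factors over all 8 libraries. Most of this DC sum was *Cd74*, with 11749 and 12154 CPM in unstimulated WT and 6513 and 6313 CPM in unstimulated 3x*Grk*-/- libraries. The markers *Itgax*, *Flt3* and *Ccr7* stood higher in unstimulated 3x*Grk*-/- than in unstimulated WT libraries. Between the genotypes, 3 of these 7 markers were higher and 4 lower in 3x*Grk*-/- cells without LPS, and 2 were higher and 5 lower with LPS (edgeR's quasi-likelihood test, adjusted p under 0.05). Beside these and all other marker counts, 22.1% of all genes tested were higher and 22.7% lower without LPS, and 24.7% higher and 24.0% lower with LPS. The 9 macrophage and monocyte markers summed to 883–909.8 CPM in unstimulated WT, 1549–1610.3 in unstimulated 3x*Grk*-/-, 443–456 in LPS-stimulated WT and 2525–2556 CPM in LPS-stimulated 3x*Grk*-/- libraries. Of these 9 genes, 6 were higher and 2 lower in 3x*Grk*-/- without LPS, and 8 were higher and 0 lower with LPS. Of the receptor genes described here, 8 were higher at each stimulation, as most of these markers were, whereas *Cd209a* and *Clec4a1* were lower without LPS. The part of the markers' cells in the results was not tested. In bulk RNA, more cells of a type and more RNA per cell cannot be told apart. The summed level of the 7 eosinophil markers was 1139–1336 CPM in WT and 66.5–88.8 CPM in 3x*Grk*-/- libraries, and 6 of the markers were lower in 3x*Grk*-/- cells without LPS and all 7 with LPS. The 10 neutrophil markers summed to 725–762 CPM in unstimulated WT, 531–549.9 in unstimulated 3x*Grk*-/-, 337–392 in LPS-stimulated WT and 188–205 CPM in LPS-stimulated 3x*Grk*-/- libraries. The 4 stromal markers summed to at most 1.81 CPM in unstimulated and 2.14–6.30 CPM in LPS-stimulated WT libraries, and to 122–135 CPM in LPS-stimulated 3x*Grk*-/- libraries, where most of the sum was *Dcn*, with 699 and 698 counts against 13 and 7 in LPS-stimulated WT and 0 in every unstimulated library. The 6 plasmacytoid DC markers summed to 159–170 CPM in unstimulated WT, 127–128 in unstimulated 3x*Grk*-/-, 437–453 in LPS-stimulated WT and 844–899.6 CPM in LPS-stimulated 3x*Grk*-/- libraries. Of the pair that was tested, *Bst2* held most of the sum (320 and 339 CPM in LPS-stimulated WT, 822 and 761 in LPS-stimulated 3x*Grk*-/- libraries) and *Tcf4* was lower in 3x*Grk*-/- cells, while the defining marker *Siglech* had at most 1 count in any library. The part of these cells was not tested either. The 6 mast cell and basophil markers summed to 32.2–51.4 CPM, and lymphocyte markers stayed at or under 1.68 and erythroid markers at or under 0.19 CPM.

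In unstimulated cells, the activating receptors were higher in 3x*Grk*-/- than in WT BMDCs. All 10 members passed the filter on low counts and all 10 passed the test, 8 higher and 2 lower. Over all 12000 genes tested, 22.1% were higher and 22.7% lower. In LPS-stimulated cells, 8 members passed the filter and all 8 of them were higher in 3x*Grk*-/- cells, against 24.7% higher and 24.0% lower among 11830 genes. *Cd209a* and *Clec9a* did not pass the filter there. Scaling by library size alone gave 1968 higher and 3525 lower genes without LPS, where TMM gave 2647 and 2722, and 2474 higher and 3572 lower genes with LPS, where TMM gave 2919 and 2835. Among the members it gave 7 higher and 2 lower without and 8 higher and 0 lower with LPS. Both comparisons show how the receptor transcripts differed between the libraries of the genotypes at the given stimulation, and they use different libraries. The genotypes also differ in the *Vav-iCre* transgene, so its part and that of the lost GRKs cannot be told apart.

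**Figure D1:**
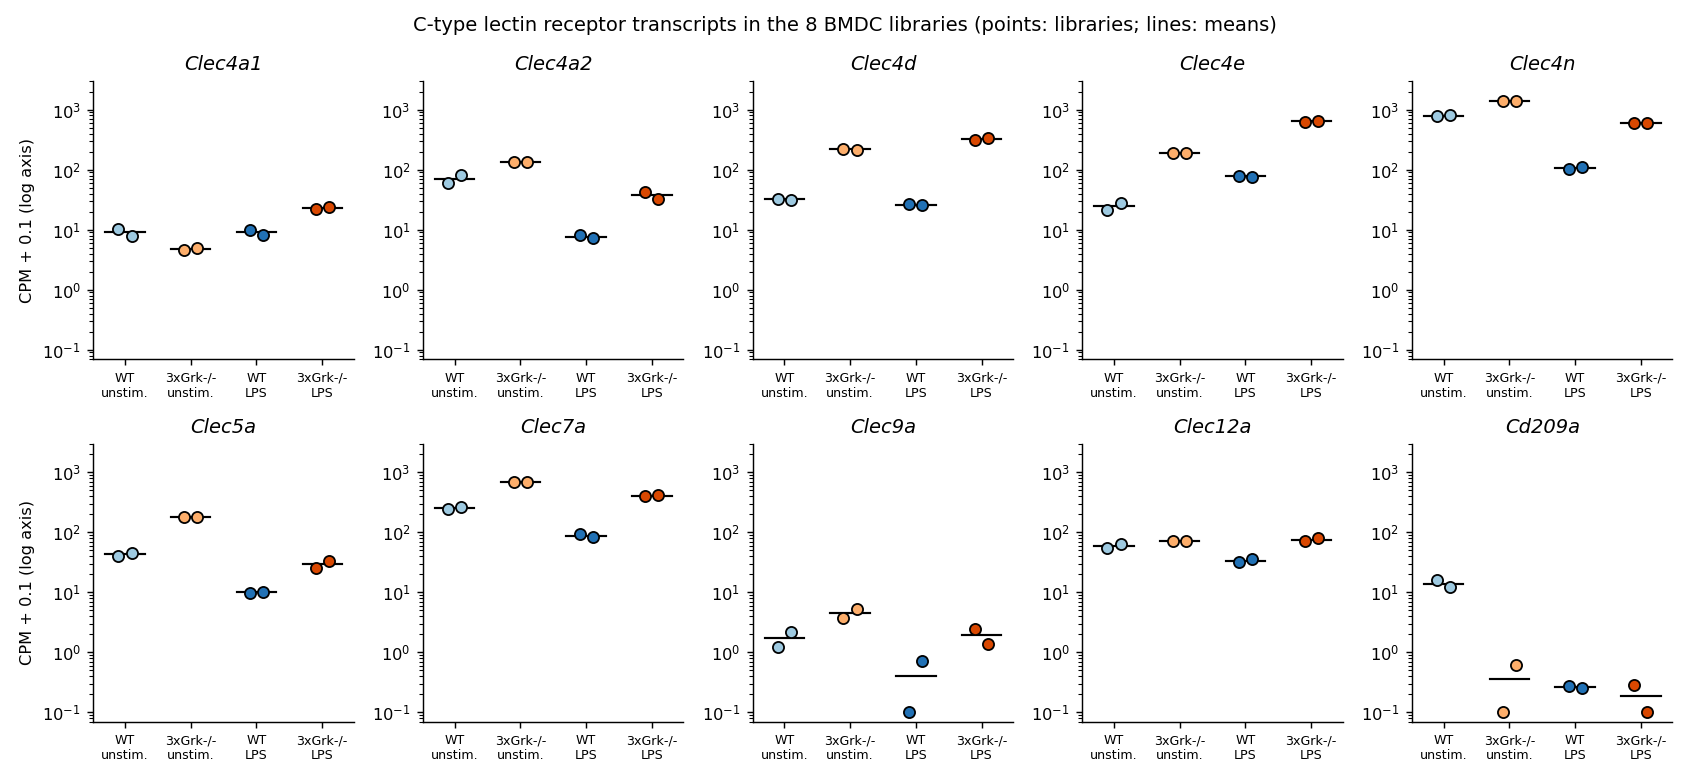
Level of each receptor transcript in the 8 libraries, as CPM plus 0.1 on a log axis. Points are libraries and lines are the means of 2 libraries. *Clec4d* and *Clec4e* lie far higher in both 3x*Grk*-/- groups than in WT at the same stimulation, and *Cd209a* is above its floor only in unstimulated WT.

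*Clec4e* encodes Mincle, a receptor for mycobacterial cord factor. It stood at 21.3 and 27.9 CPM in the unstimulated WT libraries and at 191 and 186 CPM in the 3x*Grk*-/- libraries. With LPS it stood at 79.6 and 74.5 CPM in WT and at 621 and 649.7 CPM in 3x*Grk*-/- libraries. The genotypes did not overlap at either stimulation, and even the unstimulated 3x*Grk*-/- libraries lay above the LPS-stimulated WT libraries. The log2 fold change between the genotypes was 2.91 ± 0.08 (SE, n = 2 per group; 7.51-fold) without LPS and 3.03 ± 0.07 (8.18-fold; adjusted p = 9.23e-19) with LPS.

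*Clec4d*, the neighbouring gene, encodes MCL, which forms a complex with Mincle. The unstimulated libraries held 32.5 and 31.6 CPM in WT and 225 and 214 CPM in 3x*Grk*-/- cells. After LPS, WT libraries held 27.0 and 25.4 CPM and 3x*Grk*-/- libraries 316 and 339 CPM. No WT library came near a 3x*Grk*-/- library. The log2 fold change was 2.78 ± 0.07 (6.85-fold) without LPS and 3.63 ± 0.08 (12.4-fold; adjusted p = 1.17e-18) with LPS, the largest difference between the genotypes among the members in LPS-stimulated cells.

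*Clec4n* encodes Dectin-2, a receptor for fungal mannans. It had 778 and 820.4 CPM in unstimulated WT libraries and 1392 and 1399 CPM in unstimulated 3x*Grk*-/- libraries. LPS-stimulated WT libraries had 104 and 110.0 CPM, and LPS-stimulated 3x*Grk*-/- libraries 599.8 and 604 CPM. The groups were separate in both comparisons, with a small gap before and a wide gap after LPS. The log2 fold change was 0.80 ± 0.03 (1.74-fold; adjusted p = 2.68e-123) without and 2.48 ± 0.06 (5.58-fold; adjusted p = 8.00e-18) with LPS.

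*Clec5a*, the gene of the DAP12-coupled receptor MDL-1, had its larger fold change before LPS. It lay at 41.04 and 44.95 CPM in unstimulated WT and at 182 CPM in each of the unstimulated 3x*Grk*-/- libraries. In LPS-stimulated cells it lay at 9.72 and 10.3 CPM in WT and at 25.5 and 33.0 CPM in 3x*Grk*-/- libraries. Again the genotypes did not overlap. The log2 fold change was 2.07 ± 0.07 (4.19-fold; adjusted p = 4.61e-198) without and 1.54 ± 0.17 (2.91-fold; adjusted p = 1.11e-07) with LPS.

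*Clec7a* encodes Dectin-1, the receptor for fungal beta-glucan. Its level was 249 and 261 CPM in unstimulated WT and 699 and 680.4 CPM in unstimulated 3x*Grk*-/- libraries. With LPS it was 93.2 and 84.0 CPM in WT and 402 and 412 CPM in 3x*Grk*-/- libraries. The LPS-stimulated 3x*Grk*-/- libraries thus stood above the unstimulated WT libraries. The log2 fold change was 1.43 ± 0.04 (2.69-fold; adjusted p = 3.45e-257) without and 2.19 ± 0.07 (4.56-fold; adjusted p = 2.22e-16) with LPS.

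*Clec9a*, whose product DNGR-1 binds actin of dead cells and marks cDC1, was scarce. Unstimulated WT libraries had 6 and 15 counts and unstimulated 3x*Grk*-/- libraries 24 and 30. LPS-stimulated WT libraries had 0 and 4 counts, of which the 0 allows up to 3 counts, and LPS-stimulated 3x*Grk*-/- libraries 13 and 8. With LPS *Clec9a* was left out by the filter, and a fit without the filter and the fit of all 8 libraries gave log2 fold changes of 2.39 (adjusted p = 0.00311) and 2.36 (adjusted p = 0.00903). Leaving out 1 library moved the value widely: it was 1.52 and did not pass (adjusted p = 0.0984) without replicate 1 of LPS-stimulated WT cells, 6.39 (adjusted p = 0.00499) without replicate 2 of these, and 2.76 (adjusted p = 0.0145) without replicate 2 of LPS-stimulated 3x*Grk*-/- cells. Without LPS the log2 fold change was 1.34 ± 0.35 (adjusted p = 0.000462), a call that DESeq2 did not make (adjusted p up to 0.0775 over the alternatives) and that was also lost without replicate 2 of unstimulated 3x*Grk*-/- cells. *Clec1b*, with which it shares exon sequence, was higher too, by 2.63 ± 0.49, or by 2.04 without replicate 2 of unstimulated 3x*Grk*-/- cells. The summed level of the 7 cDC1 markers was lower in unstimulated 3x*Grk*-/- cells, with 1070.0–1092 CPM in WT and 806–814 CPM in 3x*Grk*-/- unstimulated libraries. Of the 5 of these markers that were tested, 3 were lower and 1 higher: *Wdfy4* (677 and 684 CPM in WT, 213 and 206 in 3x*Grk*-/- libraries) differed by more than the sum did, while *Irf8*, a transcription factor gene, was higher (276 and 296 against 511 and 507 CPM). With LPS the sum was 1684–1744 CPM in WT and 1143–1194 CPM in 3x*Grk*-/- libraries, with 3 of the 4 tested markers lower and 1 higher.

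The inhibitory receptors were also higher in 3x*Grk*-/- cells, above all after LPS. *Clec4a2* (DCIR) had 61.0 and 80.2 CPM in unstimulated WT and 134 and 136 CPM in unstimulated 3x*Grk*-/- libraries. With LPS it had 7.92 and 7.04 CPM in WT and 42.0 and 32.3 CPM in 3x*Grk*-/- libraries. The genotypes were separate at both stimulations. The log2 fold change was 0.91 ± 0.07 (1.88-fold; adjusted p = 1.00e-42) without and 2.30 ± 0.17 (4.91-fold; adjusted p = 3.69e-10) with LPS.

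*Clec12a* (MICL), a receptor for uric acid crystals, differed little before LPS. It had 54.9 and 63.7 CPM in unstimulated WT and 70.5 and 70.8 CPM in unstimulated 3x*Grk*-/- libraries, a log2 fold change of 0.24 ± 0.08 (adjusted p = 0.00846). This call was lost in 6 alternatives, among them DESeq2, library size scaling and leaving out replicate 1 of unstimulated WT or replicate 2 of unstimulated 3x*Grk*-/- cells. With LPS it had 31.5 and 35.8 CPM in WT and 71.1 and 80.3 CPM in 3x*Grk*-/- libraries, a log2 fold change of 1.16 ± 0.11 (2.23-fold; adjusted p = 9.75e-09).

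*Clec4a1* was the member whose difference changed sign with LPS. Without LPS it had 10.3 and 7.89 CPM in WT and 4.52 and 4.86 CPM in 3x*Grk*-/- libraries, and was lower in 3x*Grk*-/- cells by a log2 fold change of -0.93 ± 0.23 (adjusted p = 0.000207). DESeq2 and a set coefficient of variation of 0.2 did not make this call. With LPS it had 9.90 and 7.96 CPM in WT and 22.2 and 23.4 CPM in 3x*Grk*-/- libraries, and was higher by 1.35 ± 0.17 (adjusted p = 9.03e-07).

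*Cd209a*, a gene of monocyte-derived DCs, was above the floor of 3 counts per library in 1 of the 4 groups. It had 84 and 85 counts in unstimulated WT libraries and 0 and 3 counts in unstimulated 3x*Grk*-/- libraries. After LPS it had 1 count in each WT library and 1 and 0 in the 3x*Grk*-/- libraries. With the floor of 3 counts per library it was at least 28.7-fold lower in unstimulated 3x*Grk*-/- than in unstimulated WT cells (adjusted p = 7.11e-45). In LPS-stimulated cells both genotypes were at the floor and no fold can be given.

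**Figure D2:**
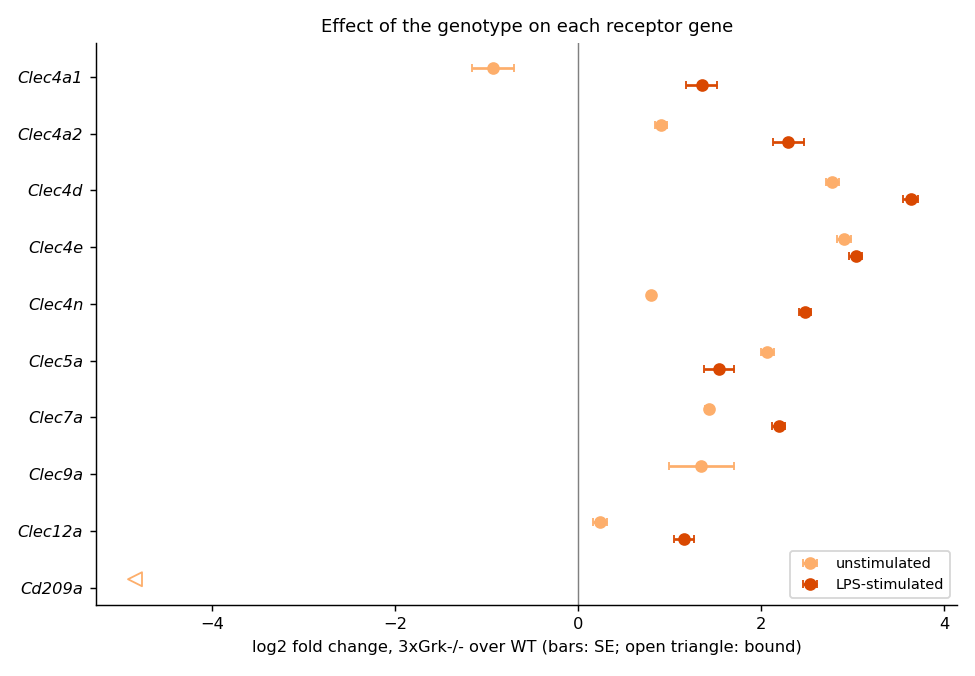
Log2 fold change of each receptor gene, 3x*Grk*-/- over WT, in unstimulated and LPS-stimulated cells, with SE as bars. Of the 10 members without LPS, 8 lie right of 0. With LPS all 8 tested members do. The open triangle marks *Cd209a* as a bound at a log2 of 4.84 below WT.

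Most of the receptors were lower after LPS in WT cells. Of the 10 members, 8 were lower, 1 was higher and 1 did not pass the test, where 29.5% of 12541 genes were higher and 30.8% lower. In 3x*Grk*-/- cells, 5 were lower, 3 higher and 2 did not pass, where 28.0% of all genes were higher and 27.4% lower. These comparisons cross the 2 deposited tables, 1 for unstimulated and 1 for LPS-stimulated cells, so any difference in how the tables were made and LPS cannot be told apart. With scaling by library size alone the median of all genes was -0.23 in both responses, against -0.015 in WT and -0.0072 in 3x*Grk*-/- cells with TMM, to which the changes are relative. That scaling gave 2443 higher and 5420 lower genes in WT (3702 and 3859 with TMM) and 2245 and 5200 in 3x*Grk*-/- cells (3510 and 3435 with TMM). Among the members it gave 1 higher and 8 lower in WT and 3 higher and 5 lower in 3x*Grk*-/- cells, as with TMM.

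*Clec4e* rose with LPS in both genotypes, by 1.64 ± 0.09 in WT and 1.76 ± 0.06 in 3x*Grk*-/- cells on the log2 scale. *Clec4d* rose by 0.58 ± 0.06 in 3x*Grk*-/- cells, whereas in WT cells it was lower by -0.28 ± 0.10 (adjusted p = 0.0212), a call that was lost in 7 alternatives. *Clec4a1* rose in 3x*Grk*-/- cells by 2.29 ± 0.19, and in WT cells its log2 fold change of 0.01 ± 0.20 did not pass the test and changed sign with the scaling. These were the 3 members that were higher after LPS in 3x*Grk*-/- cells.

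The other activating receptors fell with LPS in both genotypes. *Clec4n* fell by 2.89 on the log2 scale (SE 0.05) in WT and by 1.21 (SE 0.05) in 3x*Grk*-/- cells. *Clec7a* fell by 1.51 (SE 0.06) in WT and by 0.75 (SE 0.05) in 3x*Grk*-/- cells. *Clec5a* fell by 2.09 (SE 0.14) in WT and by 2.62 (SE 0.09) in 3x*Grk*-/- cells, the one of these receptors with the larger fall in 3x*Grk*-/- cells. *Clec9a* fell by 2.27 (SE 0.76; adjusted p = 0.00962) in WT and by 1.26 (SE 0.41; adjusted p = 0.0101) in 3x*Grk*-/- cells. Both calls rest on few counts: the first ranged from -6.36 to -1.42 without 1 library and was lost without replicate 2 of unstimulated or replicate 1 of LPS-stimulated WT cells, the second under DESeq2 and without replicate 2 of either 3x*Grk*-/- group.

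Of the inhibitory receptors, *Clec4a2* fell by 3.24 (SE 0.16) in WT and by 1.86 (SE 0.10) in 3x*Grk*-/- cells. *Clec12a* fell by 0.81 (SE 0.10) in WT cells, and in 3x*Grk*-/- cells its log2 fold change of 0.11 ± 0.09 did not pass (adjusted p = 0.296) and turned to -0.11 with library size scaling. *Cd209a* was at least 28.0-fold lower after LPS in WT cells (adjusted p = 9.25e-12), and was at the floor in both 3x*Grk*-/- groups.

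**Figure D3:**
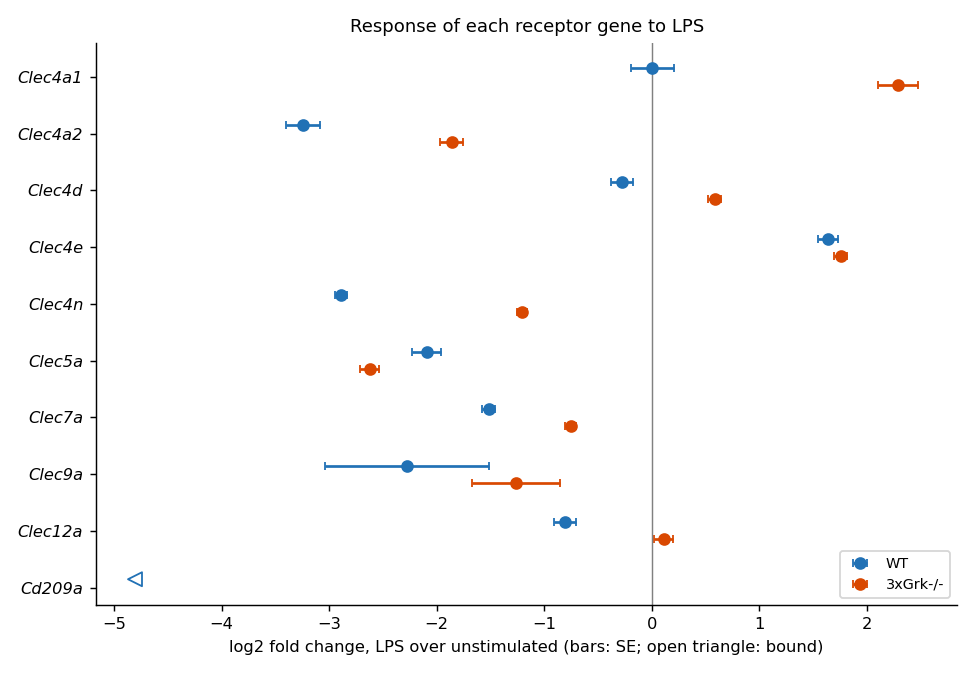
Log2 fold change of each receptor gene with LPS, in WT and in 3x*Grk*-/- cells, with SE as bars. *Clec4e* lies right of 0 in both genotypes and *Clec4a1* and *Clec4d* only in 3x*Grk*-/- cells past the test. The open triangle marks *Cd209a* in WT cells as a bound at a log2 of 4.81 below the unstimulated level.

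The interaction term asks whether the difference between the genotypes changed with LPS. It passed the test for 7 of the 10 members, 6 of them with a value above 0 (a higher difference after LPS) and 1 below, where 16.5% of all 12541 genes were above and 16.0% below. The 6 were *Clec4a1* (2.28 ± 0.28), *Clec4n* (1.68 ± 0.07), *Clec4a2* (1.38 ± 0.21), *Clec12a* (0.92 ± 0.13), *Clec4d* (0.86 ± 0.12) and *Clec7a* (0.76 ± 0.08), all on the log2 scale. *Clec5a* was below (-0.53 ± 0.18; adjusted p = 0.0244), a call that was lost in 6 alternatives, DESeq2 among them. For *Clec4e* the term was 0.12 ± 0.11 (adjusted p = 0.46), which does not show that its responses were alike. *Clec9a* had 1.01 ± 0.94 (adjusted p = 0.424), with 0.16 without replicate 1 and 5.10 without replicate 2 of LPS-stimulated WT cells, and no term is given for *Cd209a*, which was at the floor in 3 groups.

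Levels were compared between genes per kb of exon. Summed over the 10 members, the level was 746 ± 28.3 CPM per kb (SD, n = 2) in unstimulated WT, 1530.3 ± 6.23 in unstimulated 3x*Grk*-/-, 158 ± 1.08 in LPS-stimulated WT and 960.04 ± 19.4 in LPS-stimulated 3x*Grk*-/- cells. The LPS-stimulated 3x*Grk*-/- libraries (946 and 974) thus stood above the unstimulated WT libraries (726 and 766). *Clec4n* was the highest member in each of the 4 groups and made up 75.5%, 64.2%, 47.7% and 44.2% of the sum, in the same order of groups. *Clec4d* made up 2.69%, 8.96%, 10.4% and 21.3%, and *Clec4e* 0.662%, 2.48%, 9.82% and 13.3%.

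In unstimulated WT cells the order of the levels per kb was *Clec4n* (563 ± 20.97), *Clec7a* (96.7 ± 2.97), *Clec4a2* (24.1 ± 4.64), *Clec4d* (20.03 ± 0.41), *Clec5a* (11.2 ± 0.72), *Clec12a* (10.7 ± 1.12), *Cd209a* (8.82 ± 1.78), *Clec4a1* (5.82 ± 1.07), *Clec4e* (4.95 ± 0.94) and *Clec9a* (0.494 ± 0.21). *Clec4a2* and *Clec4d*, *Clec5a* and *Clec12a*, *Clec12a* and *Cd209a*, and *Clec4a1* and *Clec4e* lay within the spread of their libraries. In LPS-stimulated 3x*Grk*-/- cells the order was *Clec4n* (424 ± 2.05), *Clec4d* (205 ± 10.1), *Clec7a* (154 ± 2.62), *Clec4e* (128 ± 4.07), *Clec4a1* (14.6 ± 0.57), *Clec12a* (13.7 ± 1.18), *Clec4a2* (12.7 ± 2.34), *Clec5a* (7.61 ± 1.38), *Clec9a* (0.555 ± 0.23) and *Cd209a* (0.0574 ± 0.081). *Clec4a1*, *Clec12a* and *Clec4a2* were not apart beyond their spread there. *Clec4e* thus stood in the fourth place there, and in unstimulated WT cells in the ninth, not apart from the eighth.

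In the other groups the upper places were alike. Unstimulated 3x*Grk*-/- cells had *Clec4n* (983 ± 3.16), *Clec7a* (261 ± 5.01) and *Clec4d* (137 ± 4.97) first, followed by *Clec5a* (47.4 ± 0.011), *Clec4a2* (46.2 ± 0.51) and *Clec4e* (37.98 ± 0.71). LPS-stimulated WT cells had *Clec4n* (75.2 ± 3.15), *Clec7a* (33.6 ± 2.48), *Clec4d* (16.4 ± 0.71) and *Clec4e* (15.5 ± 0.72) first, the last pair within their spread. *Clec9a* and *Cd209a* held the last places in both.

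**Figure D4:**
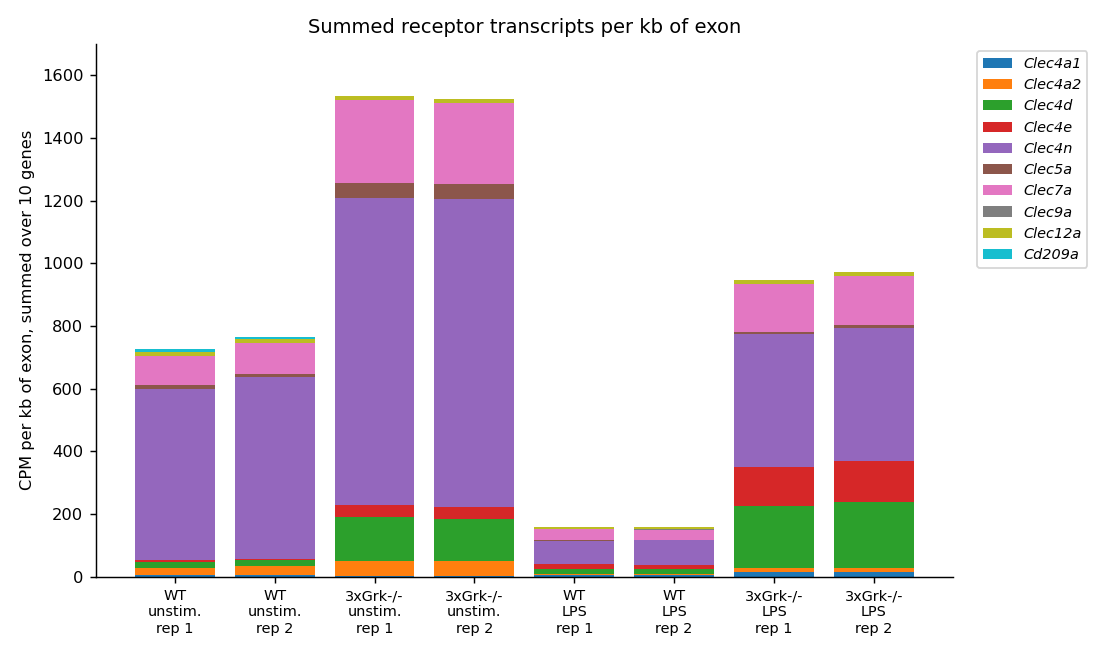
Level of the 10 receptor genes per kb of exon, stacked in each of the 8 libraries, in CPM per kb. Both 3x*Grk*-/- groups stand above the WT group of the same stimulation, *Clec4n* is the largest part of each bar, and *Clec4d* and *Clec4e* widen in LPS-stimulated 3x*Grk*-/- cells.

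The adaptors and kinases behind the activating receptors were described with a list of 35 genes, of which 34 were tested. Without LPS, 18 passed the test as higher in 3x*Grk*-/- cells and 6 as lower, where 22.1% of all genes were higher and 22.7% lower, and the median log2 fold change was 0.14 against 0.00 over all genes. With LPS, 16 passed as higher and 7 as lower, where 24.7% of all genes were higher and 24.0% lower, and the median was 0.19 against -0.01. With library size scaling the counts were 11 higher and 6 lower without LPS and 13 higher and 11 lower with LPS. With a minimum log2 fold change of 1 in size, 2 genes passed without and 7 with LPS. Over all genes, 1444 of 12000 passed that limit without and 1984 of 11830 with LPS. A set coefficient of variation of 0.2 left 3 and 9 calls in the list, and 1448 and 2236 over all genes.

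*Fcer1g*, the FcR gamma chain that Mincle, MCL and Dectin-2 need, had 139 and 141 CPM in unstimulated WT and 246 and 237 CPM in unstimulated 3x*Grk*-/- libraries, a log2 fold change of 0.78 ± 0.05. With LPS it had 105 and 121 CPM in WT and 430.1 and 442 CPM in 3x*Grk*-/- libraries, a log2 fold change of 1.93 ± 0.07. The adaptor thus differed in the same direction as its receptors at both stimulations. *Tyrobp*, which encodes DAP12, the partner of MDL-1, had 284 and 282 CPM in unstimulated WT and 352 and 336 CPM in unstimulated 3x*Grk*-/- libraries (0.28 ± 0.04), and 85.7 and 90.1 against 203 and 193 CPM with LPS (1.15 ± 0.07). *Syk*, the kinase they share, was higher by 0.37 ± 0.04 without and 0.85 ± 0.06 with LPS.

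The complex below Syk did not move as one. *Card9* was lower by -0.23 ± 0.07 (adjusted p = 0.0024) without LPS and had 0.20 ± 0.10 (adjusted p = 0.098) with LPS. *Malt1*, the protease of the complex, was higher by 0.16 ± 0.04 and 0.98 ± 0.06. *Bcl10* had -0.07 ± 0.07 (adjusted p = 0.49) without LPS and was lower by -0.27 ± 0.09 with LPS. *Prkcd*, the kinase that acts on CARD9, was higher by 0.16 ± 0.03 and 0.18 ± 0.06, and *Plcg2* had 0.10 ± 0.05 and -0.17 ± 0.07 and passed in neither comparison. With library size scaling the calls of *Prkcd* at both stimulations and of *Malt1* without LPS were lost.

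Of the 10 genes of inhibitory signalling, 3 passed as higher and 4 as lower without LPS (22.1% and 22.7% of all genes), and 2 as higher and 6 as lower with LPS (24.7% and 24.0% of all genes). The median log2 fold changes were -0.06 and -0.27. *Ptpn6*, which encodes SHP-1, had 244 and 248 CPM in unstimulated WT and 207 and 211 CPM in 3x*Grk*-/- libraries, and 215 and 214 against 119 and 133 CPM with LPS. It was lower in 3x*Grk*-/- cells by -0.24 ± 0.05 without and -0.78 ± 0.07 with LPS, opposite to the receptors *Clec4a2* and *Clec12a*. *Ptpn11* (SHP-2) had -0.12 ± 0.06 (adjusted p = 0.075) without and was lower by -0.26 ± 0.07 with LPS, and *Inpp5d* (SHIP-1) had -0.01 ± 0.05 and 0.05 ± 0.07. With a set coefficient of variation of 0.2, 0 of these genes passed without and 3 with LPS, beside 1448 and 2236 over all genes.

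**Figure D5:**
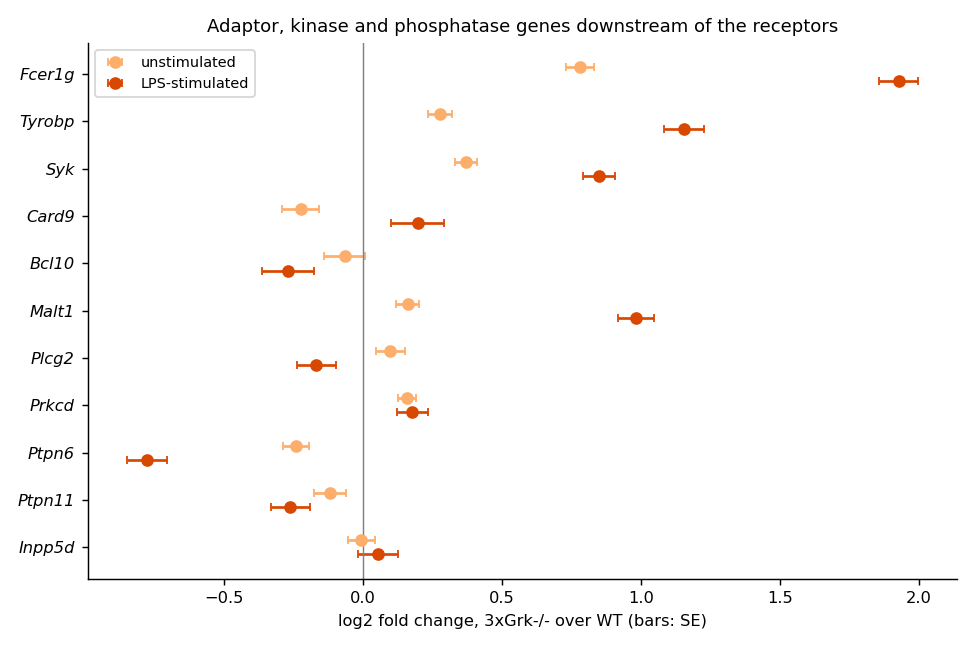
Log2 fold change, 3x*Grk*-/- over WT, of 11 adaptor, kinase, complex and phosphatase genes that act below the receptors, with SE as bars. *Fcer1g*, *Tyrobp*, *Syk* and *Malt1* lie right of 0 at both stimulations and further right with LPS. *Ptpn6* lies left of 0 at both.

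A further 66 genes of C-type lectins and lectin-like proteins were set beside the members. Of the 28 tested without LPS, 11 passed as higher in 3x*Grk*-/- cells and 15 as lower, beside 22.1% and 22.7% of all genes, and their median log2 fold change was -0.50. Of the 26 tested with LPS, 11 passed as higher and 9 as lower, beside 24.7% and 24.0% of all genes, and the median was -0.11. Among these genes both directions occurred at both stimulations. The members tested with LPS were all higher, but the members were chosen with earlier results of these data known. *Cd209a* and *Clec9a* also did not pass the filter with LPS, and a contrast between the lists was not tested.

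Among the genes of this list named by the rule, *Mgl2*, *Clec10a* and *Ly75* were lower in 3x*Grk*-/- cells at both stimulations. *Mgl2*, a galactose-type lectin, had 820.3 and 832 CPM in unstimulated WT and 169 and 166 CPM in unstimulated 3x*Grk*-/- libraries (-2.31 ± 0.04), and 17.5 and 19.6 against 12.5 and 13.9 CPM with LPS (-0.50 ± 0.16). The related *Clec10a* was lower by -2.26 ± 0.15 and -1.14 ± 0.29. With LPS both calls were lost under DESeq2 and without replicate 2 of WT cells, and that of *Mgl2* also without replicate 1 of 3x*Grk*-/- cells. *Ly75*, which encodes the endocytic receptor DEC-205, was lower by -0.52 ± 0.05 and -1.29 ± 0.06. *Cd207*, which encodes Langerin, had 54 and 72 counts in unstimulated WT and 1 and 3 in unstimulated 3x*Grk*-/- libraries, and *Clec4b1* was lower by -1.52 ± 0.17 without LPS. *Cd209c*, a relative of *Cd209a*, was lower by -4.58 ± 0.23 without LPS and had 56 and 72 counts in WT and 3 counts in each 3x*Grk*-/- library with LPS. *Prg2*, an eosinophil granule gene, was lower by -4.27 ± 0.06 without and -4.24 ± 0.08 with LPS, as were most of the eosinophil markers, of which it is one, and *Cd72* was lower by -1.06 ± 0.21 and -1.90 ± 0.10.

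*Mrc1*, *Olr1*, *Cd302*, *Clec4a3* and *Clec2d* were higher at both stimulations. *Mrc1*, the mannose receptor of macrophages, had 24.5 and 28.5 CPM in unstimulated WT and 47.4 and 45.0 CPM in unstimulated 3x*Grk*-/- libraries (0.79 ± 0.11), and 0.720 and 1.84 against 12.7 and 11.5 CPM with LPS (3.16 ± 0.32, and 4.03 without replicate 2 of LPS-stimulated WT cells). *Olr1*, the receptor LOX-1 for oxidised LDL, was higher by 2.57 ± 0.09 without and 1.48 ± 0.09 with LPS. *Cd302* was higher by 1.33 ± 0.08 and 0.51 ± 0.10, *Clec4a3* by 0.38 ± 0.16 and 1.64 ± 0.23, and *Clec2d* by 0.18 ± 0.07 and 0.55 ± 0.08. Without LPS the calls of *Clec4a3* and *Clec2d* were lost under DESeq2 and library size scaling, and without replicate 2 of unstimulated 3x*Grk*-/- cells, that of *Clec4a3* also without replicate 1 of unstimulated WT, and that of *Clec2d* also without replicate 2 of unstimulated WT or replicate 1 of unstimulated 3x*Grk*-/- cells. Without LPS, the collectin *Colec12* (3.80 ± 0.39), *Layn* (3.67 ± 0.43) and *Clec1b* (2.63 ± 0.49) had the largest positive values of this list, all from few counts. With LPS, *Colec12* had 1 count in each WT library and 13 and 24 in 3x*Grk*-/- libraries, and *Clec1b* had 1 and 0 against 10 and 13.

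Both directions occurred with LPS in this list too. In WT cells *Cd69*, an early activation marker, rose by 4.06 ± 0.08, *Cd72* by 3.06 ± 0.11 and *Layn* by 2.17 ± 0.56 on the log2 scale, while *Asgr2*, a subunit of the asialoglycoprotein receptor, fell by 7.23 (SE 0.11). *Cd207* and *Cd209d* went to the floor, from 54 and 72 and from 13 and 14 counts. In 3x*Grk*-/- cells *Cd72* rose by 2.22 ± 0.17, *Cd69* by 2.097 ± 0.084 and *Thbd* by 1.42 ± 0.46, and *Clec4b1*, *Asgr2* and *Mgl2* were lower, with log2 fold changes of -4.45 ± 0.49, -4.34 ± 0.17 and -3.65 ± 0.09. The value of *Clec4b1* was -8.61 without replicate 1 and -3.41 without replicate 2 of LPS-stimulated 3x*Grk*-/- cells. The call of *Thbd* was lost under DESeq2 and without replicate 1 of either 3x*Grk*-/- group, with 0.80 (adjusted p = 0.311) when it was the LPS-stimulated one. Among the genes of the list that passed the test, the interaction was largest for *Asgr2* (2.89 ± 0.36), *Mrc1* (2.37 ± 0.34, and 3.23 without replicate 2 of LPS-stimulated WT cells) and *Mgl2* (1.81 ± 0.14) above 0, and for *Layn* (-2.64 ± 0.62), *Cd69* (-1.96 ± 0.13) and *Olr1* (-1.08 ± 0.12) below 0.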

How the data were processed

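RNA was isolated from BMDCs, libraries were made with a stranded mRNA kit, and reads were aligned with STAR to mm10 and counted on genes with featureCounts (GRCm38 in the submitters' processing notes) by the authors. The annotation release and strand setting are not given in the sources used here. The authors deposited whole-number counts of reads per gene, without normalization, in 2 tables (unstimulated and LPS-stimulated cells), and every column was tied to its sample by the sample labels. The study's methods name technical repeats of RNA isolation. The sources used here do not say whether the libraries of a group came from separate cultures or animals, so p-values measure the spread between these libraries, which may be technical. The common biological coefficient of variation was 0.0306 without and 0.0573 with LPS.

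Gene names and coordinates came from GENCODE M21 (GRCm38): 47224 of 47937 IDs matched, and the unmatched IDs held 0.0847% of all counts. Computations used R 4.3.3, edgeR 4.0.16, limma 3.58.1, DESeq2 1.42.0 and Python 3.11.15. Genotypes were compared in a fit of the 4 libraries of each stimulation, and LPS responses and the interaction in 1 fit of all 8 libraries (TMM, filterByExpr, glmQLFit and glmQLFTest, Benjamini-Hochberg adjustment over all genes tested, threshold 0.05, two-sided). To obtain the SE, the unshrunk log2 fold change was divided by the root of the F statistic, and folds are 2 to the power of the log2 fold change. With 2 libraries per group an exact permutation test of 1 gene cannot go below 0.333. A group with at most 3 counts in each library is at the floor, which covers counting error only. The fits were tested on simulated counts. Within every group the counts varied beyond sampling noise, so no library was treated as a copy of the same reads. This does not tell technical repeats from separate cultures or animals. Chi-square per gene was 1.59 to 3.07 in 3 groups and 9.02 in LPS-stimulated 3x*Grk*-/- cells. Replicate 2 of the latter held 2.16% of its counts on *Gm42418*, a gene over ribosomal RNA, against at most 0.638% elsewhere.

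The members and lists were chosen with earlier results of these data known. Named are all 10 members, fixed genes of each list, the GRK genes, and the 3 genes of the C-type lectin list with the largest change in each direction per comparison, without a fitted fold in the results where a group was at the floor. RefSeq held a promoter for 9 of the 10 members, and not for *Clec4n*. Receptor proteins were not analysed here. Alternatives were RLE factors, library size only, DESeq2, no filter, a minimum of 10 counts per library, a minimum log2 fold change of 1 in either direction, a replicate block, a coefficient of variation of 0.2, leaving out *Gm42418* (17470 to 149727 counts), other choices of the libraries fitted, and leaving out each library.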

Additional observations from a re-analysis of the deposited data

Results flagged for a closer look

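For 7 members the difference between the genotypes itself differed between unstimulated and LPS-stimulated cells, by the interaction term of edgeR's fit of all 8 libraries (adjusted p over all genes tested). The term is the log2 fold change of 3x*Grk*-/- over WT with LPS minus that without LPS. It was 2.28 for *Clec4a1* (adjusted p = 2.03e-07), the member whose difference changed sign. It was 1.68 for *Clec4n* (5.57e-17 after adjustment), 1.38 for *Clec4a2*, 0.92 for *Clec12a*, 0.86 for *Clec4d* and 0.76 for *Clec7a*, each with a larger excess in 3x*Grk*-/- cells after LPS. It was -0.53 for *Clec5a* (adjusted p = 0.0244), with a smaller excess after LPS. DESeq2 and a set coefficient of variation of 0.2 did not make this call of *Clec5a*. Over all 12541 genes tested, the term passed above 0 for 16.5% and below 0 for 16.0%. The summed macrophage and monocyte markers also differed more between the genotypes after LPS, at 2525–2556 CPM for 3x*Grk*-/- and 443–456 CPM for WT libraries against 1549–1610.3 and 883–909.8 CPM before it, and their part in these terms was not tested. Groups of 2 libraries are too small for a test of single outlying libraries.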

How the results depend on the processing

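Of 772 values of members under alternatives, 721 kept their direction and their side of the threshold, 41 lost the call and 10 changed sign, all 10 of them of values without a call. A minimum log2 fold change of 1 in either direction left 6 members between the genotypes without LPS and 3 for the interaction, by its construction, and a set coefficient of variation of 0.2 left 3 for the interaction. In fits without 1 library, the lone library of a group is assumed to vary like the other groups, so their calls are no evidence that the calls are stable. DESeq2 called 7 members between the genotypes without LPS and 8 with LPS. It called 8 for LPS in WT, 7 for LPS in 3x*Grk*-/- cells and 6 for the interaction. In this order, DESeq2 called 3086, 3934, 5854, 5159 and 2643 genes in all. Over all genes, the counts of calls moved by more than 1.5 times under DESeq2 (3086 against 5369 without LPS and 2643 against 4070 for the interaction), with the size limit (1444, 1984, 2700, 2373 and 1375) and with the set coefficient (1448, 2236, 3330, 2804 and 667). In the C-type lectin list, at least 10 counts in every library left 17 calls against 26 without LPS, 11 against 20 for LPS in WT and 13 against 20 for LPS in 3x*Grk*-/- cells.

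Samples with the same replicate number did not deviate together in every pair of groups (correlations of -0.080 to 0.109). This does not tell whether samples with an equal number share a culture, an animal or a batch. The fit with a replicate block called 10, 8, 9, 8 and 7 members, as many as without the block, and 5292, 5654, 7438, 6793 and 3884 genes in all.

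These values changed sign, and the cause was not tested. In the LPS response of WT cells, *Clec4a1* turned to -0.21 (library size only), -0.00069 (DESeq2), -0.0097 (no filter), -0.028 (at least 10 counts), -0.0056 (coefficient of 0.2) and, without 1 library, ranged from -0.21 to 0.18 (-0.205 and -0.14 among them), while with library size only *Syk* turned to -0.10 and *Grk6* to -0.017. In the LPS response of 3x*Grk*-/- cells, library size only turned *Clec12a* to -0.11 and *Ptpn11* to -0.045, and leaving out a library gave *Clec4a3* -0.15 to 0.091 (0.069 among them). Between the genotypes, *Inpp5d* turned to 0.013 (no filter) and ranged from -0.083 to 0.058 without 1 library (0.023 among them) without LPS and to -0.035 (library size only) with LPS, and *Bcl10* ranged from -0.15 to 0.0032 without 1 library. In the interaction, leaving out 1 library gave *Clec4e* -0.086 to 0.29, *Prkcd* -0.010 to 0.044 (-0.00099 among them), and *Inpp5d* -0.0012 to 0.15. Fitted values with a group at the floor are no folds: their sign turned without 1 library for *Cd209a* in the LPS response of 3x*Grk*-/- cells (-3.68 to 2.38) and for *Clec4b1* in the interaction (-2.61 to 2.59).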
